A study of Mus musculus with 18 samples.

Results

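The response of the doxorubicin-treated mouse uterus to progesterone was read from 6 of the 18 RNA libraries of the series, 3 from animals given doxorubicin and progesterone (DOX P4) and 3 from animals given doxorubicin and oil (DOX OIL), across all 15494 expressed genes. Every animal was an ovariectomized adult of the outbred CD-1 stock, so that the ovarian source of steroids had been removed, and whole uterus was homogenized, so that epithelium, stroma, muscle, vessels and immune cells were measured together. Doxorubicin (DOX) is an anthracycline that poisons topoisomerase II, and oil is the vehicle of the steroid. The 6 libraries were chosen by their labels alone, with no measured value. The matching libraries without doxorubicin, 3 from PBS P4 and 3 from PBS OIL animals, where PBS is the saline vehicle, serve below as the comparison arm, and the estradiol libraries entered only the shared estimate of spread. The labels give no dose and no time after injection, and nothing in them ties each library of a group to its own animal, so that the spread behind each p-value may be technical.

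Progesterone acts on the uterus through the progesterone receptor, a nuclear receptor of epithelium, stroma and muscle. In the epithelium it induces genes such as amphiregulin and Indian hedgehog, and hedgehog signals on to the stroma, where progesterone opposes the action of estrogen and readies the tissue for implantation. The bound receptor recognizes the same DNA element as the glucocorticoid and mineralocorticoid receptors, so a set of chaperone and feedback genes, Fkbp5 among them, answers to several of these steroids.

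After doxorubicin, progesterone changed 4618 of the 15494 tested genes, which is 29.8% of them, with nearly even numbers in each direction. Of these, 2271 genes rose, 14.7% of those tested, and 2347 fell, 15.1%. The counts of called members in the gene lists below stand beside these shares. A gene is called here when its adjusted p is under 0.05 in edgeR's quasi-likelihood test with Benjamini-Hochberg adjustment over all tested genes, and all log2 fold changes are DOX P4 minus DOX OIL, given ± SE with 3 libraries a group unless stated otherwise. Most changes were small: 2374 of the called genes moved by less than 1.5-fold, and the median absolute log2 fold change of the called genes was 0.57. At least 2-fold changes were seen in 452 genes that rose (2.92%) and 600 that fell (3.87%), together 1052 (6.79%). At least 4-fold, the counts were 118 risen and 120 fallen genes, at least 8-fold 43 and 38, and at least 16-fold 17 and 14. A stricter test, whether the change itself exceeded 2-fold, called 137 genes (0.884%), of which 72 rose and 65 fell. In 7723 tested genes, 49.8%, the 3 DOX P4 values lay wholly above or below the 3 DOX OIL values, and so did 4529 of the called genes.

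**Figure D1:**
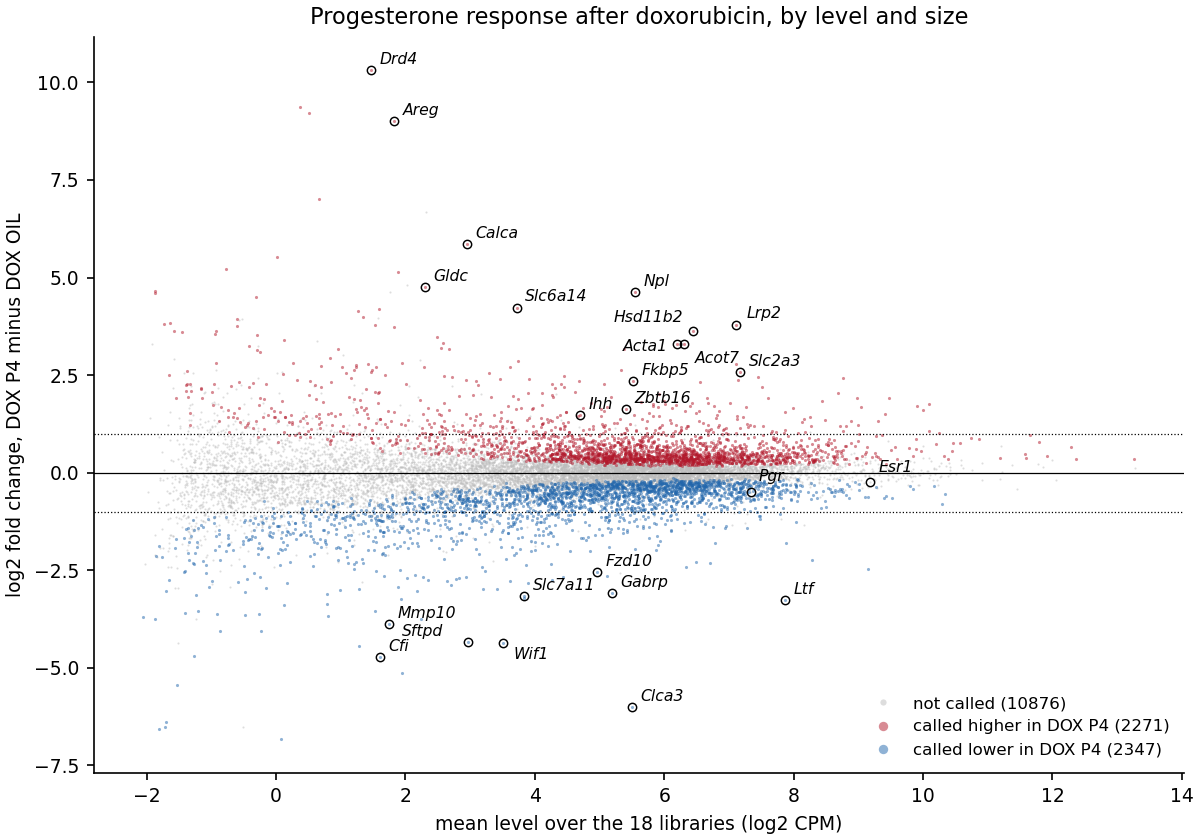
Each point is a tested gene, placed by its mean level over the 18 libraries (log2 CPM, read counts scaled to library size) and by its log2 fold change, DOX P4 minus DOX OIL, with dotted lines at a 2-fold change. The 2271 genes called higher (red) and 2347 called lower (blue) are found at every level, and the widest spread of fold changes is at low levels, where fitted values of genes with few counts in a group are no measure of size.

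A larger share of genes was called at higher levels, and a smaller share of those calls was large. Among 2043 genes with a mean log2 CPM under 1, where CPM are read counts scaled to library size, 16.1% were called and 90.3% of those calls were at least 2-fold. Among 1717 genes over 7, 40% were called, 439 higher and 247 lower, and 9.18% of the calls were at least 2-fold. Between 4 and 7, which holds 7922 genes, 1369 rose and 1310 fell, whereas between 1 and 4 the falls led, with 340 rises and 584 falls among 3812 genes. Within the 6 libraries the first principal component of the 1000 most variable genes held 64.2% of the variance and placed the DOX P4 libraries at 21.8 to 34.5 and the DOX OIL libraries at -29.2 to -26.2. Total counts were 21040028 to 26966264 in DOX P4 and 18042357 to 21951895 in DOX OIL.

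Samples of whole uterus also differ in tissue makeup, and in bulk RNA fewer cells of a type and less RNA per cell cannot be told apart. The summed level of 20 smooth muscle markers was 23435 to 40311 CPM in DOX P4 and 10697 to 22882 CPM in DOX OIL, with the highest value in DOX P4 replicate 2 and the lowest in DOX OIL replicate 1. DOX OIL replicate 2 stood apart in macrophage and fat markers. Its macrophage markers summed to 1196 CPM, against 522 to 708 CPM in the other DOX OIL libraries, and its adipocyte markers to 1296 CPM, against 581 to 745 CPM. Its B and plasma cell markers, at 123 CPM, and neutrophil markers, at 156 CPM, were instead the lowest of the DOX OIL group. Adipocyte markers were lowest in DOX P4 replicate 3, at 358 CPM. Their part in the results below was not tested, and results that depend on one of these libraries are given with and without it.

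To show the DNA in front of genes that moved, the 250 bases before the RefSeq transcription start (GRCm38.p6) were searched on both strands for the core palindrome of the steroid receptor element, ACANNNTGT, where N is any base, and for one arm of the element alone, TGTTCT or AGAACA. Of the 284 genes that the naming rule picks, 201 had a promoter in the table. The palindrome was found in 5.83% of the promoters of 309 genes that rose at least 2-fold and in 6.6% of those of 394 genes that fell at least 2-fold, against 5.91% of all 27018 promoters and 3.92% of the 10677 tested genes with one. Single arms were found in 12.3% and 12.7%, against 16.2% of all promoters and 11.1% of tested genes. The letters thus stood about as often before fallen as before risen genes. In the 2524 promoters of genes called with changes under 2-fold, the palindrome was found in 2.69% and single arms in 9.35%. Differences between these shares were not tested. A single arm can overlap the palindrome, as in Hdc. Among the 12 largest rises Crabp1 held the palindrome, and Areg, Calca, Drd4, Epha8, Gldc, Lrp2, Npl, Slc6a14 and Slc24a4 held neither in this window, nor did Fkbp5 or Ihh.
3 promoters that hold the palindrome are printed 5′ to 3′ on the gene's strand with the matched letters in capitals, 2 of genes that rose (Crabp1, chr9:54764498-54764747, plus strand, and Hdc, chr2:126618679-126618928, minus strand) and 1 of a gene that fell (Lcn2, chr2:32387740-32387989, minus strand), and the match begins 187, 143 and 152 bases before the start in this order.
Crabp1: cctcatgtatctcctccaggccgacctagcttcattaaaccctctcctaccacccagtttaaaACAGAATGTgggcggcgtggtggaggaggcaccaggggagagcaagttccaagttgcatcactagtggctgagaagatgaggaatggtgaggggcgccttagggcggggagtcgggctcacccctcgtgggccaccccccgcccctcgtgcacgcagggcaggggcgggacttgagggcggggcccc
Hdc: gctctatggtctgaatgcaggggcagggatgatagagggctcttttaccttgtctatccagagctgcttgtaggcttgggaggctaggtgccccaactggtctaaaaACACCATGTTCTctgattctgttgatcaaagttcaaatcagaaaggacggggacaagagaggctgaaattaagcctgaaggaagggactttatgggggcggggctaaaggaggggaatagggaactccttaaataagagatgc
Lcn2: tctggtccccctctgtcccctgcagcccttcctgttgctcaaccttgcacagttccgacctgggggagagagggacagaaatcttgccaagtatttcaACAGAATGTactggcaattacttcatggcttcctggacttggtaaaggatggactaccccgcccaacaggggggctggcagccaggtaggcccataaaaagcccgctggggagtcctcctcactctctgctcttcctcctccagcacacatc

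The 12 largest rises were of Drd4, Areg, Calca, Gldc, Npl, Slc6a14, Fam83a, Epha8, Slc24a4, Lrp2, Crabp1 and Hsd11b2. Areg, which encodes amphiregulin, a ligand of the EGF receptor and a classic epithelial progesterone target in mice, was at 10.6, 6.17 and 15.4 CPM in DOX P4 and at 0, 0.0459 and 0 CPM in DOX OIL. With 824 counts against 1, the ratio was 700.6, with a 95% counting interval of 125 to 27706. Drd4, the D4 dopamine receptor, had 543 counts in DOX P4 and 0 in DOX OIL and was at least 153.9-fold higher, by a floor of 3 counts over the group. Calca encodes calcitonin and the calcitonin gene-related peptide, and stood at 30.4, 9.78 and 30.4 CPM in DOX P4, against 0.456, 0.413 and 0.316 CPM in DOX OIL, a log2 fold change of 5.86 ± 0.62. DOX P4 replicate 2 was the lowest of its group in both Areg and Calca. The 12 were picked among genes whose groups do not overlap. Counting intervals and floors cover counting error only.

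The sialic acid lyase gene Npl and the transporter gene Slc6a14 were among the rises with the smallest p. Npl, the lyase that breaks down sialic acid, was at 116, 104 and 123 CPM in DOX P4 and at 4.1, 5.96 and 3.84 CPM in DOX OIL (4.62 ± 0.26, adjusted p = 4.29e-08 by edgeR). The amino acid transporter gene Slc6a14 was at 40.6, 32.2 and 29.3 CPM in DOX P4 and 1.62, 1.93 and 1.9 CPM in DOX OIL (4.23 ± 0.19, adjusted p = 3.82e-09 by edgeR). Acot7, an acyl-CoA thioesterase that shared with Slc6a14 the smallest adjusted p of the test beyond 2-fold, was at 161, 166 and 203 CPM in DOX P4, against 16.9, 17.5 and 19.5 CPM in DOX OIL (3.30 ± 0.14). These 3 genes were picked by size of change or smallest p, so their small spread within groups is no separate result. Gldc, the glycine decarboxylase of the glycine cleavage system, rose by 4.75 ± 0.39, with 9.55 to 16.9 CPM in DOX P4 and 0.414 to 0.55 CPM in DOX OIL. Hsd11b2, the enzyme that inactivates glucocorticoids, was at 169, 193 and 306 CPM in DOX P4 and at 18.3, 17.1 and 18.2 CPM in DOX OIL (3.64 ± 0.33). Lrp2, the endocytic receptor megalin, was even in DOX P4, at 327, 303 and 309 CPM, and uneven in DOX OIL, at 6.92, 11.6 and 50 CPM with replicate 3 the highest (3.79 ± 0.63). The retinoic acid binding protein gene Crabp1, whose promoter is printed above, was at 4.52, 7.48 and 15.6 CPM in DOX P4 and 0.788, 0.734 and 0.526 CPM in DOX OIL (3.73 ± 0.57). Atp2c2, a calcium pump of the secretory pathway, had 361 counts in DOX P4 and 2 in DOX OIL, a ratio of 153 with a 95% counting interval of 42.2 to 1272. The rest of the 12 largest rises were Fam83a (4.13 ± 0.66), the ephrin receptor gene Epha8 (3.98 ± 0.70, with DOX P4 replicate 3 at 15.7 CPM and the other two at 3.03 and 3.16 CPM) and the sodium-calcium exchanger gene Slc24a4 (3.79 ± 0.61).

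The 12 largest falls were of Clca3, Cfi, Wif1, Sftpd, Mmp10, Lrrtm1, Kif12, Ltf, Fam179a, Adora1, Slc7a11 and Gabrp. The gene listed as Clca3, an older symbol of the family of calcium-activated chloride channel regulators, was at 0.995, 3.16 and 0.723 CPM in DOX P4 and at 79, 46.3 and 192 CPM in DOX OIL (-6.0 ± 0.54). Cfi, complement factor I, which inactivates complement component C3b, was at 0.362, 0.0752 and 0.145 CPM in DOX P4 and at 4.73, 4.4 and 6.11 CPM in DOX OIL (-4.73 ± 0.40, adjusted p = 2.96e-06 by edgeR). Wif1, a secreted inhibitor that binds Wnt ligands, was at 1.4, 0.489 and 0.651 CPM in DOX P4 and at 20.9, 7.34 and 23 CPM in DOX OIL (-4.36 ± 0.72). Groups that do not overlap were a condition for entry among the 12, and 49.8% of all tested genes met it. Sftpd, the collectin surfactant protein D, fell by 4.35 ± 0.62 on the log2 scale, and Mmp10, the matrix protease stromelysin 2, was at 0.724, 0.301 and 0.398 CPM in DOX P4 and at 7.13, 6.28 and 7.42 CPM in DOX OIL (-3.88 ± 0.59). Lrrtm1 was at -3.76 ± 0.78 and the kinesin gene Kif12 at -3.56 ± 0.81. Ltf, the iron-binding protein lactoferrin, was at 9.95, 74 and 14.4 CPM in DOX P4 and at 171, 123 and 654 CPM in DOX OIL (-3.27 ± 0.80), and without DOX OIL replicate 3 the value was -2.16. Slc7a11, the cystine-glutamate exchanger, was at 1.63, 2.18 and 1.59 CPM in DOX P4 and at 28.7, 9.13 and 11 CPM in DOX OIL (-3.17 ± 0.56). Adora1, the A1 adenosine receptor (-3.20 ± 0.34), Gabrp, the pi subunit of the GABA-A receptor (-3.08 ± 0.59), and Fam179a (-3.24 ± 0.35) complete the 12. By the test beyond 2-fold, Tmie (-2.42 ± 0.18) and the clone-named 5330417C22Rik (-2.66 ± 0.23), 2310043J07Rik (-4.43 ± 0.50) and Gm5607 (-5.13 ± 0.61) joined Cfi and Clca3 as the falls with the smallest p.

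**Figure D2:**
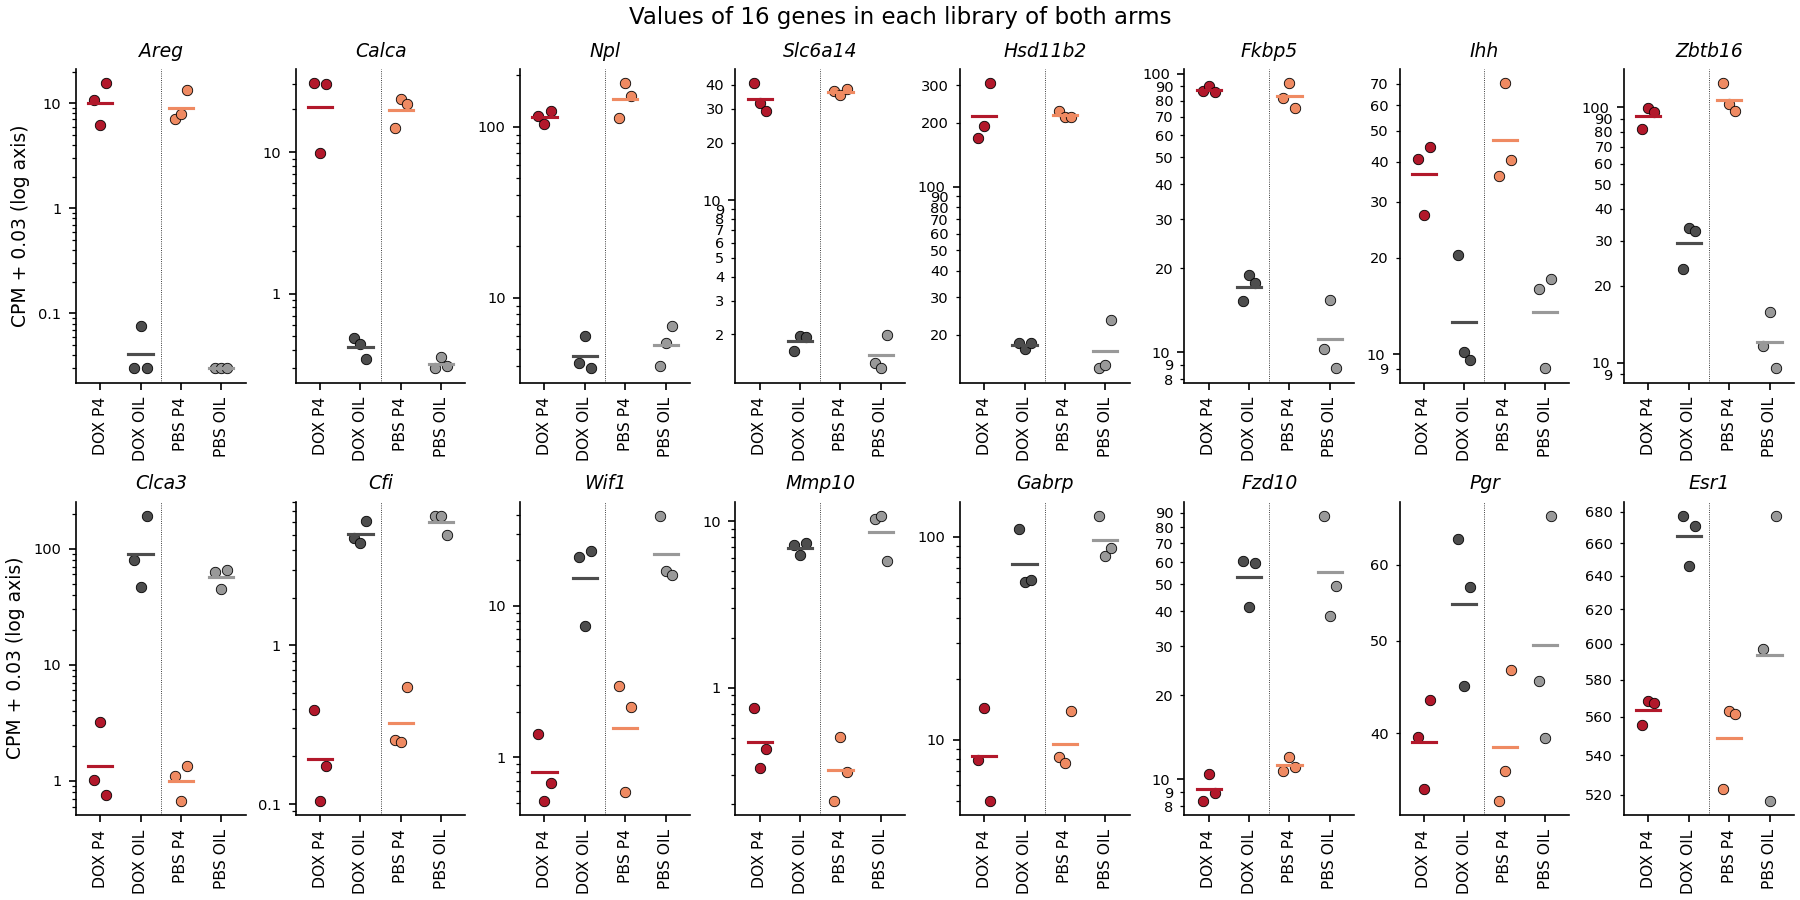
Each point is 1 library, in CPM plus 0.03 on a log axis with its own scale in each panel, and bars are geometric means of 3 libraries, for DOX P4 and DOX OIL and for PBS P4 and PBS OIL. From Areg to Zbtb16 the DOX P4 points lie above the DOX OIL points, from Clca3 to Fzd10 they lie below, and Pgr and Esr1 were not called.

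Positions on GRCm38 follow GENCODE M21. Npl lies on chromosome 1 from 153503015 to 153550045, Areg on chromosome 5 from 91139599 to 91148432, Calca on chromosome 7 from 114631478 to 114636357, Hsd11b2 on chromosome 8 from 105518755 to 105523988, Lrp2 on chromosome 2 from 69424340 to 69586065 and Slc6a14 on chromosome X from 21714896 to 21742355. Cfi lies on chromosome 3 from 129835884 to 129875332, Wif1 on chromosome 10 from 121033960 to 121100650, Mmp10 on chromosome 9 from 7502352 to 7510240, Fkbp5 on chromosome 17 from 28399094 to 28517527, and Ihh on chromosome 1 from 74945315 to 74951672. The strand setting of the counting is not given in the sources used here, and in that annotation exons of Tmie, Gli1, Nr1d1, Sulf2, Chrd, Mmp11, Muc4, Atp1b1, Cox6c, Ddb2, Dkc1, Hspe1, Hspd1, Ckm, Tnnc2, Deptor, Irf1, Adora1, Rfx1 and mt-Nd5 overlap an exon of a gene on the other strand, so that reads of such pairs could not be told apart without strand.

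The receptors of progesterone, estrogen and glucocorticoids were not called. Pgr, the progesterone receptor, was at 39.7, 35 and 43.3 CPM in DOX P4 and at 63.8, 44.8 and 56.8 CPM in DOX OIL, groups that did not overlap, with a log2 fold change of -0.49 ± 0.20 that was not called (adjusted p = 0.077 by edgeR; called at 0.0485 without DOX OIL replicate 2, where the value was -0.62). Esr1, the main uterine estrogen receptor, was at -0.24 ± 0.15 (adjusted p = 0.249 by edgeR) and Nr3c1, the glucocorticoid receptor, at -0.06 ± 0.13 (0.77). Of the 23 receptors and cofactors measured, 5 rose and 2 fell, a share near the 29.8% called over all genes. Gata2, a partner of the progesterone receptor, rose by 0.65 ± 0.15, and Pgrmc1, a membrane-associated progesterone-binding protein, fell by 0.50 ± 0.11. The rises numbered 3 without DOX OIL replicate 2 or 3 or DOX P4 replicate 3, and 1 gene fell without DOX P4 replicate 2 or 3, while 9 rose and 5 fell with the 6 libraries fitted alone.

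Among known progesterone targets, more genes rose than fell. Of 47 measured uterine genes listed as progesterone-induced, 21 rose, 16 of them at least 2-fold, and 4 fell, with a median log2 fold change of 0.44, beside -0.016 over all tested genes (the falls numbered 2 without DOX P4 replicate 3 or with no filter on low counts). Fkbp5, a chaperone of steroid receptors, was at 86.7, 90.1 and 86 CPM in DOX P4 and at 15.2, 18.9 and 17.6 CPM in DOX OIL (2.35 ± 0.19, adjusted p = 2.09e-06 by edgeR). Zbtb16, a transcription factor of decidualizing stroma, was at 82.3, 98.8 and 95.6 CPM in DOX P4 and at 23.2, 33.7 and 32.6 CPM in DOX OIL (1.63 ± 0.25). Both genes had tight replicates and groups far apart. Ihh, the hedgehog ligand of the epithelium, was at 40.7, 27.3 and 44.5 CPM in DOX P4 and at 20.5, 10.1 and 9.58 CPM in DOX OIL (1.48 ± 0.40, adjusted p = 0.0124 by edgeR), and the call ended without DOX OIL replicate 2 (adjusted p = 0.0543) or 3 (0.0533). Hand2, the stromal factor that restrains fibroblast growth factor signals, rose by 0.63 ± 0.20, a call that ended without DOX OIL replicate 1 (0.092) or 2 (0.0628) or DOX P4 replicate 3 (0.119).

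The 8 risen members of the 16 measured hedgehog pathway genes ran from ligand to targets, while 0 fell (0 also at an unadjusted p under 0.05 and by DESeq2; 5 rose without DOX OIL replicate 2). Hhip, a target that binds and limits hedgehog ligands, was at 4.12, 2.82 and 3.58 CPM in DOX P4 and at 0.29, 0.459 and 0.421 CPM in DOX OIL (3.16 ± 0.52). The transcription factor Gli1 rose by 0.86 ± 0.18 and the inhibitor Sufu by 0.31 ± 0.08. Genes that glucocorticoids also induce were split, with 8 risen and 8 fallen among 33 (5 risen without DOX OIL replicate 2 and 5 fallen without DOX P4 replicate 2). Mt2, a metallothionein, rose by 1.47 ± 0.22, and Irs2, an adaptor of insulin receptors, fell by 1.63 ± 0.18. Glucocorticoid reporters were also split. Fkbp5, given above, rose, whereas Tsc22d3 (0.17 ± 0.16), Per1 (-0.14 ± 0.22) and Sgk1 (0.58 ± 0.24, adjusted p = 0.0806 by edgeR) were not called. Among 44 genes listed as estrogen-induced, 6 rose and 7 fell, a share near the 29.8% called over all genes. The falls numbered 4 without DOX OIL replicate 1 or DOX P4 replicate 3 and 11 with the 6 libraries fitted alone. The rises included Igf1 (1.83 ± 0.23) and Wnt5a (1.01 ± 0.17), both stromal ligands, and the falls included Lcn2 (-2.42 ± 0.38), a siderophore-binding protein of the epithelium.

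Among growth factors, components of single pathways went both ways. Of 39 Wnt genes 3 rose and 11 fell, 9 of them at least 2-fold. Fzd10, a Wnt receptor, was at 8.37, 10.4 and 8.9 CPM in DOX P4 and at 60.6, 41.3 and 59.5 CPM in DOX OIL (-2.54 ± 0.31). Axin2, a feedback target of Wnt signalling, was at 60.3 to 73.5 CPM in DOX P4 and at 122 to 164 CPM in DOX OIL (-1.07 ± 0.16). The ligand Wnt2 fell by 1.71 ± 0.22. Of 19 genes of the insulin-like growth factor system 4 rose and 8 fell. The ligand Igf1 was at 234, 184 and 331 CPM in DOX P4 and at 71.2, 68.8 and 70.4 CPM in DOX OIL, and the binding protein gene Igfbp4 rose by 0.96 ± 0.14. Irs2 was at 9.18 to 14.5 CPM in DOX P4 and at 34 to 37.4 CPM in DOX OIL, and Stc1, a secreted glycoprotein that inhibits a protease of this system, fell by 1.68 ± 0.20. Thus the ligand and one binding protein were higher and an adaptor was lower.

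In the EGF family 4 of 19 genes rose and 4 fell. Beside Areg, the receptor Egfr rose by 1.09 ± 0.18 and the receptor inhibitor Errfi1 by 1.44 ± 0.29. The receptor Erbb4 was at 0.543, 0.226 and 0.0362 CPM in DOX P4 and at 4.56, 2.57 and 2.95 CPM in DOX OIL (-3.68 ± 0.60). Of 39 genes of the TGF-beta, activin and bone morphogenetic protein (BMP) family 7 rose and 8 fell (5 without DOX P4 replicate 2). Here the secreted inhibitors Fst (2.49 ± 0.43) and Chrd (0.89 ± 0.14) and the ligand Gdf11 (1.55 ± 0.28) rose, and Id3, a target of BMP signals, fell by 1.32 ± 0.23. Fst, follistatin, was uneven in DOX P4, at 16.5, 9.14 and 31.6 CPM, against 3.98, 3.99 and 2.16 CPM in DOX OIL. Among 30 Hox genes 2 rose and 3 fell, a share under the 29.8% called over all genes (7 fell without DOX P4 replicate 1). Both rises are of genes known for their part in uterine development, Hoxa11 (1.24 ± 0.20) at 251 to 304 CPM in DOX P4 against 99.9 to 137 CPM in DOX OIL, and Hoxa10 (1.01 ± 0.24). In the Notch pathway 7 of 20 genes fell and 2 rose, among them the ligands Jag1 (-0.75 ± 0.10) and Dll4 (-0.94 ± 0.18), which fell, and the target Heyl (0.89 ± 0.13), which rose. The Notch falls numbered 4 without DOX OIL replicate 1 or 2 or DOX P4 replicate 3, and 1 gene rose without DOX OIL replicate 1 or 3 or DOX P4 replicate 2 or 3.

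Genes of secretion and of junctions, which the epithelium is known to express, were called in both directions, and whole uterus was measured. Their shares of called genes stand beside 29.8% over all genes. Of 25 luminal secretory and antimicrobial genes 5 rose and 4 fell. Wfdc1, a whey acidic protein domain inhibitor, was at 141, 139 and 195 CPM in DOX P4 and at 51, 47.2 and 46.8 CPM in DOX OIL (1.71 ± 0.19). Muc4, a membrane mucin, was at 1.95 to 2.68 CPM in DOX P4 and at 12.9 to 18.1 CPM in DOX OIL (-2.66 ± 0.34). Spink3, a protease inhibitor of uterine glands, had 254 counts in DOX P4 and 0 in DOX OIL, at least 72-fold higher by the floor of 3 counts over the group. Of 29 junction genes 10 fell, 5 at least 2-fold, and 2 rose (6 fell without DOX P4 replicate 3, and 1 rose without DOX OIL replicate 2 or DOX P4 replicate 3). Claudins went opposite ways: Cldn10 fell by 1.56 ± 0.20 and Cldn3 rose by 1.2 ± 0.24, at 169 to 198 CPM in DOX P4 and 66.1 to 93 CPM in DOX OIL. F11r, the junctional adhesion molecule A, fell by 0.49 ± 0.10.

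Of 36 channels, pumps and aquaporins 8 rose and 3 fell, a share near the 29.8% called over all genes. The calcium channel Trpv6 was at 2.76, 2.33 and 2.89 CPM in DOX P4 and at 10.6, 9.54 and 11 CPM in DOX OIL (-1.96 ± 0.20). The chloride channel Cftr was at 1.58, 1.96 and 1.37 CPM in DOX P4 and at 14.4, 8.9 and 10.7 CPM in DOX OIL (-2.79 ± 0.31). S100g, the calcium-binding protein calbindin-D9k, was at 83.4, 90.4 and 108 CPM in DOX P4 and at 12.9, 12.3 and 6.11 CPM in DOX OIL (3.16 ± 0.40). Atp1b1, a subunit of the sodium-potassium pump, rose by 1.38 ± 0.20. Among 44 transporters of amino acids, sugars and nucleosides 8 rose (5 without DOX OIL replicate 2) and 12 fell. The glucose carrier Slc2a3 was at 317, 239 and 299 CPM in DOX P4 and at 51.6, 43.6 and 48.4 CPM in DOX OIL (2.57 ± 0.38). The taurine carrier Slc6a6 was at 275 to 305 CPM in DOX P4 and at 522 to 552 CPM in DOX OIL (-0.89 ± 0.11). Slc43a1, a carrier of large neutral amino acids, fell by 0.99 ± 0.12.

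Collagen and matrix genes held many rises and 1 fall. Of 42 collagen and fibrillar matrix genes 19 rose, 14 at least 2-fold, and 1 fell, with a median log2 fold change of 0.70 (12 rose without DOX OIL replicate 1, and 0 fell without DOX OIL replicate 2 or DOX P4 replicate 3). Col6a2 was at 793, 1066 and 1226 CPM in DOX P4 and at 264, 376 and 375 CPM in DOX OIL (1.6 ± 0.21). Col15a1, a basement membrane collagen, was at 189, 246 and 261 CPM in DOX P4 and at 68.1, 69 and 66.6 CPM in DOX OIL (1.77 ± 0.33). Col6a1 rose by 0.74 ± 0.13 and Adamts1, a protease of the proteoglycan versican and a known progesterone target, by 1.33 ± 0.24. The smooth muscle sums given above moved in the same direction, and their part in these rises was not tested. Of 34 proteases and inhibitors of the matrix 8 rose and 4 fell, with 4 rises without DOX OIL replicate 1 or 3 or DOX P4 replicate 3. Adam12 rose by 1.95 ± 0.34, whereas Mmp11 was at 43.5 to 52.6 CPM in DOX P4 and at 110 to 119 CPM in DOX OIL (-1.21 ± 0.20). Mmp7, the protease matrilysin, had 0 counts in DOX P4 and 15 in DOX OIL, at least 5.88-fold lower by the same floor, and was named after its values were seen.

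Genes of prostaglandins, retinoids, vessels and neuropeptides were called in both directions, beside 14.7% higher and 15.1% lower over all tested genes. For vascular genes and for neuropeptide and neurotrophin genes the share called was near the 29.8% over all genes. Of 32 prostaglandin genes 7 rose and 5 fell. Hpgds, a synthase of prostaglandin D2, fell by 1.59 ± 0.24 and Pla2g7, which breaks down platelet-activating factor, by 1.76 ± 0.18. The receptor Ptger3 was at 95.2, 114 and 100 CPM in DOX P4 and at 21.5, 32.7 and 40.5 CPM in DOX OIL (1.71 ± 0.31), and Ptgr1, a prostaglandin reductase, rose by 1.28 ± 0.22. Of 27 retinoid genes 7 rose and 5 fell. Aldh1a2, which makes retinoic acid in stroma, was at 95.8, 86.9 and 177 CPM in DOX P4 and at 48.1, 30.6 and 34.3 CPM in DOX OIL (1.67 ± 0.31). The carrier gene Ttr (2.24 ± 0.41) rose beside Crabp1. Retinoid rises numbered 4 without DOX P4 replicate 3, and falls 3 without DOX OIL replicate 1 or 3 or DOX P4 replicate 2 or 3. Of 36 vascular genes 6 rose and 6 fell, with the rises at 3 without DOX OIL replicate 3 and the falls at 2 without DOX P4 replicate 2 and 3 without DOX P4 replicate 3, and with 8 rises and 3 falls under DESeq2 size factors. Pgf, the placental growth factor, was at 19.6 to 25.8 CPM in DOX P4 and at 5.05 to 6.33 CPM in DOX OIL (2.06 ± 0.36), Hif1a rose by 0.90 ± 0.19, and Adm, the vasodilator adrenomedullin, fell by 0.91 ± 0.20. Ramp1, a subunit of the receptor for the peptide that Calca encodes, rose by 0.92 ± 0.17. Among 33 neuropeptide and neurotrophin genes 6 rose and 3 fell, with falls at 1 without DOX OIL replicate 2 or 3 or DOX P4 replicate 1 or 3. The neurotrophin receptor Ngfr was at 17.7, 25.3 and 29.4 CPM in DOX P4 and at 4.39, 2.29 and 3.84 CPM in DOX OIL (2.78 ± 0.46), and the ligand Artn rose by 1.08 ± 0.20.

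Genes of cellular respiration rose together by small steps. Of 33 nuclear genes of oxidative phosphorylation 26 rose and 0 fell (0 also at an unadjusted p under 0.05 and by DESeq2), with a median log2 fold change of 0.41 and 1 rise of at least 2-fold. Their summed level was 4338 to 4845 CPM in DOX P4 and 3236 to 3483 CPM in DOX OIL, so the groups did not overlap. Cycs, cytochrome c, was at 40.5, 37.3 and 46.3 CPM in DOX P4 and at 22.1, 21.5 and 18.2 CPM in DOX OIL (1.01 ± 0.16). The complex I subunit gene Ndufa4 and the complex IV subunit gene Cox6c rose by 0.82 ± 0.12 and 0.88 ± 0.14. Transcripts encoded in the mitochondrial genome took 4.29 to 4.79% of the counts in DOX P4 and 3.4 to 3.73% in DOX OIL. Of the 13 tested 9 rose and 0 fell (0 also unadjusted and by DESeq2), which became 5 rises without DOX OIL replicate 1 or 3 and 4 without DOX P4 replicate 2. mt-Nd5 rose by 0.87 ± 0.13 and mt-Nd1 by 0.48 ± 0.12. With mitochondrial and small RNA features removed before scaling, 27 nuclear members rose and 0 fell.

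Ribosome biogenesis and protein folding genes held more rises than falls. Of 32 ribosome biogenesis genes 16 rose and 0 fell (0 unadjusted and by DESeq2), with 10 rises without DOX OIL replicate 2 and 9 without DOX P4 replicate 3. Ltv1, a factor of small subunit assembly, rose by 0.71 ± 0.13, Polr1e, a subunit of RNA polymerase I, by 0.70 ± 0.14 and Dkc1, the pseudouridine synthase dyskerin, by 0.48 ± 0.09. Of cytosolic ribosomal proteins edgeR called 0 of 34 in either direction, 2 were higher and 2 lower at an unadjusted p under 0.05, and DESeq2 called 2 higher and 0 lower. Of 26 heat shock genes 13 rose and 2 fell, with Hspe1 (0.76 ± 0.12) and Hspd1 (0.68 ± 0.15), the mitochondrial chaperonin pair, and Hspa4 (0.71 ± 0.12) among the rises. Rises of heat shock genes numbered 6 without DOX OIL replicate 1 and 8 without DOX OIL replicate 2 or DOX P4 replicate 2, and falls 0 without DOX OIL replicate 1 or 3 or DOX P4 replicate 1 or 2 and 1 without DOX P4 replicate 3. Of 30 chaperones and stress genes of the endoplasmic reticulum 16 rose and 3 fell, with 9 rises without DOX OIL replicate 1 or DOX P4 replicate 3. The foldases and chaperones P4hb (0.40 ± 0.07), Dnajb11 (0.76 ± 0.16) and Calr (0.52 ± 0.12) rose. Derl3, a factor of protein retrotranslocation that is also high in plasma cells, was at 1.09 to 1.3 CPM in DOX P4 and at 10.1, 6.65 and 7.37 CPM in DOX OIL (-2.75 ± 0.36).

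Glycolysis and cholesterol genes held more rises than falls. Of 27 hypoxia and glycolysis genes 11 rose and 3 fell (7 rises without DOX OIL replicate 1 and 6 without DOX P4 replicate 3). Pfkfb3, which makes the activator of glycolytic phosphofructokinase, was at 204, 146 and 194 CPM in DOX P4 and at 97.3, 71.6 and 64.8 CPM in DOX OIL (1.22 ± 0.16). The pyruvate kinase gene listed as Pkm2 rose by 0.54 ± 0.08. Ndrg1, a stress-responsive gene, was at 97.5, 100 and 98.4 CPM in DOX P4 and at 193, 200 and 199 CPM in DOX OIL (-1.0 ± 0.12). Of 26 cholesterol genes 10 rose and 2 fell, the rises with enzymes of sterol synthesis such as Mvk (0.74 ± 0.14), Idi1 (0.91 ± 0.18) and Sqle (0.93 ± 0.20). Among 36 fatty acid and triglyceride genes 3 rose and 4 fell, a share under the 29.8% called over all genes (5 rose without DOX P4 replicate 3). The beta-oxidation gene Hadha rose by 0.37 ± 0.07, and Acacb, an acetyl-CoA carboxylase, fell by 0.87 ± 0.21. Of 29 metallothionein and NRF2 genes 10 rose and 2 fell (5 rises without DOX OIL replicate 1 or DOX P4 replicate 1 or 3). The glutathione transferase gene Gstm2 was at 357, 348 and 364 CPM in DOX P4 and at 82.2, 74.2 and 78 CPM in DOX OIL (2.19 ± 0.18). Sod2, the mitochondrial superoxide dismutase, rose by 0.50 ± 0.08. Among 25 brakes and sensors of PI3K and mTORC1, 10 fell and 5 rose, the rises at 2 without DOX OIL replicate 1 or 2 or DOX P4 replicate 2 or 3 and at 3 without DOX OIL replicate 3 or DOX P4 replicate 1. Tsc1, a subunit of the mTORC1 inhibitor complex, fell by 0.60 ± 0.07 and Pik3ip1, an inhibitor of PI3K, by 1.46 ± 0.25, while Deptor, an inhibitor of mTOR kinase, was at 49.4 to 63.4 CPM in DOX P4 and at 84.5 to 135 CPM in DOX OIL (-0.88 ± 0.20).

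Genes of cell division gave few calls. EdgeR called 0 of 30 mitotic genes in either direction, 0 passed an unadjusted p of 0.05 and DESeq2 called 0, although the list's median log2 fold change was 0.33. Mki67, a marker of cycling cells, was at 23.5, 35.8 and 24.4 CPM in DOX P4 and at 29.6, 24.7 and 13.1 CPM in DOX OIL (0.31 ± 0.44, adjusted p = 0.634 by edgeR). Top2a, the topoisomerase that doxorubicin poisons, was at 19.2, 30.5 and 21.7 CPM in DOX P4 and at 22.8, 19.6 and 11.6 CPM in DOX OIL (0.40 ± 0.37, adjusted p = 0.438 by edgeR). In both genes the groups overlapped. Of 34 replication genes 1 rose, Tyms, the thymidylate synthase (0.79 ± 0.16), and 0 fell, with 3 higher and 3 lower at an unadjusted p under 0.05 and 2 higher and 0 lower by DESeq2 (2 rose without DOX OIL replicate 1, and 1 fell without DOX P4 replicate 1 or 2). Of 27 G1 cyclins and inhibitors 3 rose and 5 fell, a share near the 29.8% called over all genes. There was 1 rise without DOX OIL replicate 3 or DOX P4 replicate 3, and 3 falls without DOX OIL replicate 1 or DOX P4 replicate 2 or 3. The proto-oncogene Mycn was at 1.58, 1.32 and 1.3 CPM in DOX P4 and at 16.2, 8.53 and 8.32 CPM in DOX OIL (-2.98 ± 0.49). The cyclin-dependent kinase inhibitors Cdkn1b (-0.61 ± 0.12) and Cdkn1c (-0.56 ± 0.15) fell.

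Damage-response genes were measured because doxorubicin breaks DNA, and here they show whether progesterone moved them in treated tissue. Of 33 p53 targets 8 rose and 6 fell, and the rises numbered 5 without DOX OIL replicate 1 or DOX P4 replicate 3 and 4 without DOX OIL replicate 3. Cdkn1a, which encodes p21, an inhibitor of cyclin-dependent kinases, stood at 54.9, 26.7 and 59.3 CPM in DOX P4 and at 47.8, 63.8 and 25.5 CPM in DOX OIL, with overlapping groups (0.04 ± 0.33, adjusted p = 0.948 by edgeR). The sulfatase Sulf2 rose by 1.27 ± 0.24, and the epoxide hydrolase Ephx1 (-0.84 ± 0.15) and the damage sensor Ddb2 (-0.65 ± 0.13) fell. Of 37 damage signalling and repair genes 3 rose and 5 fell, a share under the 29.8% called over all genes (6 rose with DESeq2 or its size factors, or without mitochondrial and small RNA features). Lig4, the ligase of end joining, was at 0.87 ± 0.16 and the lesion sensor Xpc at -0.42 ± 0.09. Among 19 genes that handle doxorubicin, the topoisomerase Top1 was at 138, 119 and 146 CPM in DOX P4 and at 92.3, 87 and 82.4 CPM in DOX OIL (0.62 ± 0.11). The efflux pump genes Abcb1a, which encodes a P-glycoprotein, and Abcc3 fell by 0.85 ± 0.19 and 1.14 ± 0.20. In that list 5 genes rose and 2 fell, with 3 rises without DOX OIL replicate 1 or 2 and 1 without DOX P4 replicate 3. Of 26 genes of the BCL2 family and related apoptosis regulators 8 fell and 1 rose, beside 29.8% called over all genes in either direction. Birc2, an inhibitor of apoptosis (-0.51 ± 0.07), and the BH3-only gene Bcl2l11 (-0.73 ± 0.13) fell and Bok, a pro-apoptotic member, rose by 0.61 ± 0.15. Falls numbered 5 without DOX OIL replicate 2 or 3 or DOX P4 replicate 3 and with DESeq2 size factors, and 4 without DOX P4 replicate 1 or 2, and 2 genes rose without DOX OIL replicate 2.

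Among the clock and immediate early genes that were called, falls outnumbered rises. Of 21 clock and output genes 11 fell and 1 rose (6 falls without DOX OIL replicate 1 or DOX P4 replicate 3 and 7 without DOX P4 replicate 2). The repressor Nr1d1 was at 79.4, 109 and 58.3 CPM in DOX P4 and at 295, 162 and 204 CPM in DOX OIL (-1.42 ± 0.27). The repressor Cry2 fell by 0.59 ± 0.11 and Bhlhe40 by 0.98 ± 0.16. The hour of collection, on which these genes depend, is not given in the sources used here. Of 29 immediate early factors 7 fell and 0 rose (0 unadjusted and by DESeq2; 4 fell without DOX OIL replicate 1 or DOX P4 replicate 1 and with no filter on low counts). Jun was at 94.5, 130 and 148 CPM in DOX P4 and at 227, 179 and 186 CPM in DOX OIL (-0.67 ± 0.17). Maff fell by 1.59 ± 0.33, Ier3 by 0.87 ± 0.19 and Klf6 by 0.56 ± 0.14.

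**Figure D3:**
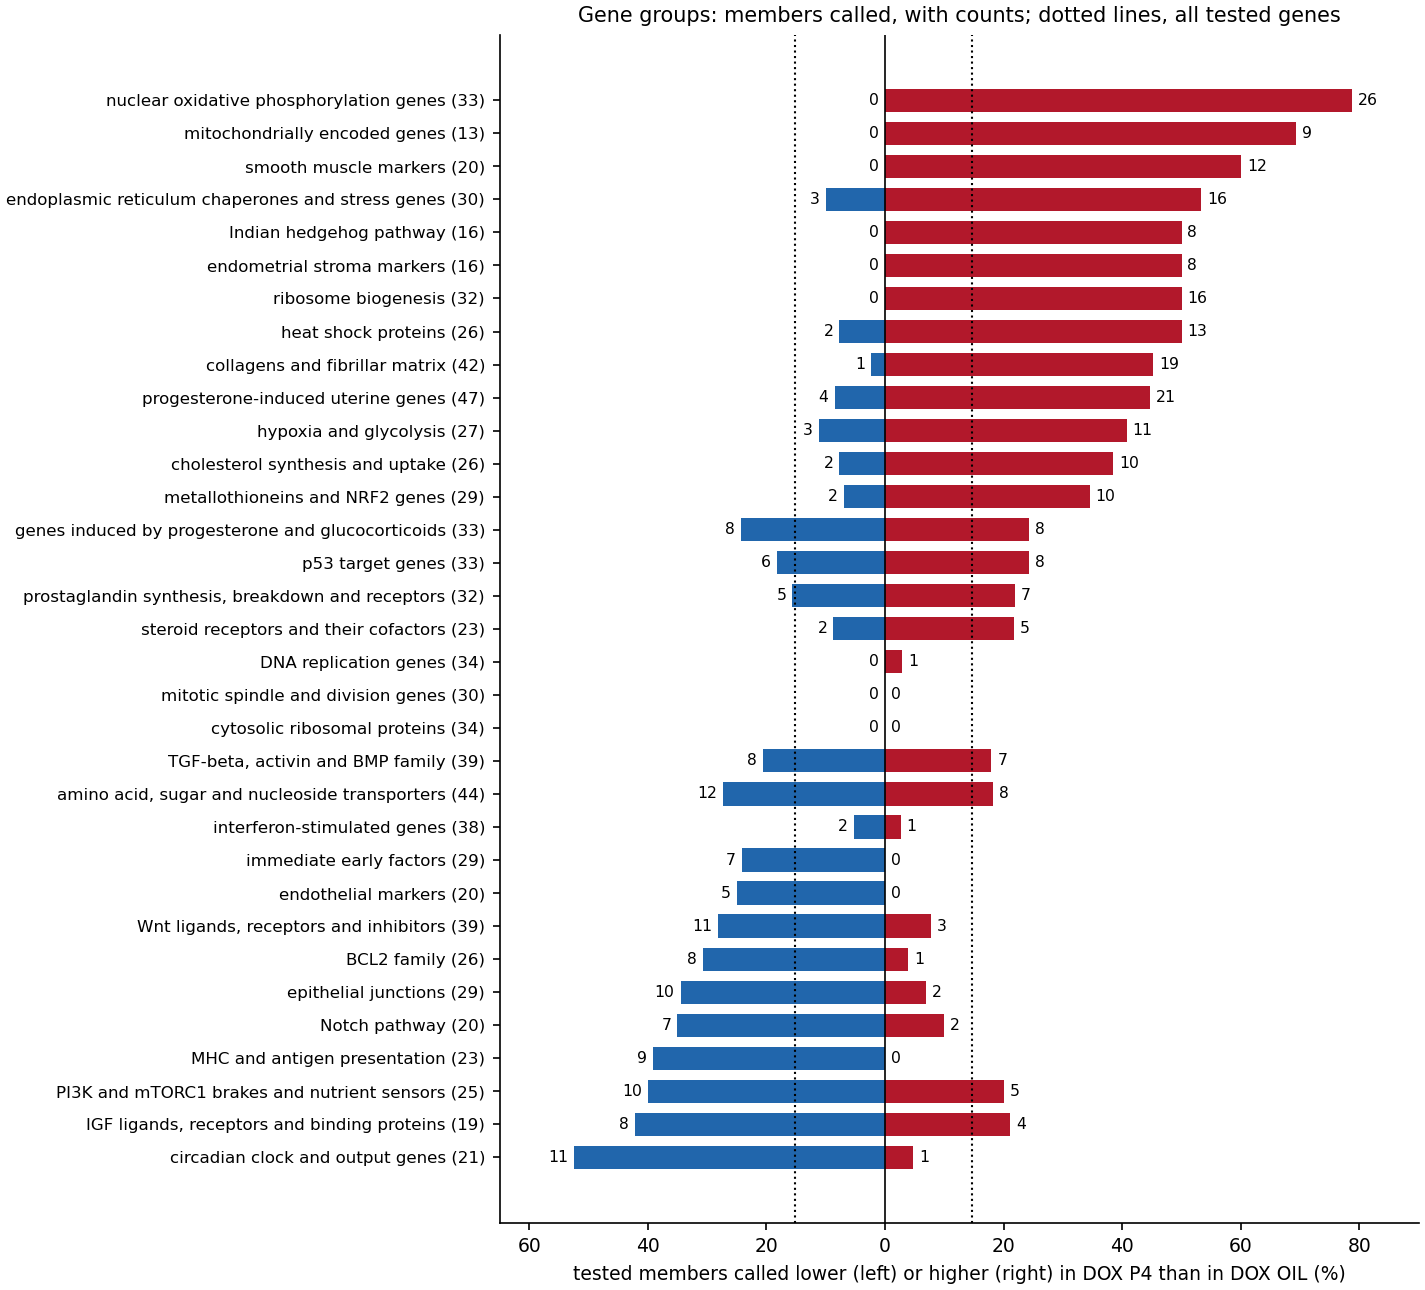
Bars give the percentage of a group's tested members (number in brackets) called higher (right) or lower (left) in DOX P4 than in DOX OIL, with the count at the end of each bar, and dotted lines mark 14.7% higher and 15.1% lower over all tested genes. Oxidative phosphorylation stands at the top with 26 of 33 risen and clock genes at the bottom with 11 of 21 fallen.

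Antigen presentation and chemokine genes held more falls than rises, beside 14.7% called higher and 15.1% lower over all tested genes. The share of chemokine genes that fell was near that 15.1%. The chemokine, cytokine, complement, B and plasma cell, and T and NK cell lists had a share called under the 29.8% over all genes. Several of the antigen presentation and chemokine calls ended without DOX OIL replicate 2 or without DOX P4 replicate 3. Macrophage markers were highest of the 6 libraries in DOX OIL replicate 2, and their part in these calls was not tested. Of 23 genes of antigen presentation 9 fell and 0 rose (0 unadjusted and by DESeq2), with 4 falls without DOX OIL replicate 2 or DOX P4 replicate 3 and 5 without DOX P4 replicate 2. Cd74, the chaperone of class II molecules, was at 211, 160 and 122 CPM in DOX P4 and at 278, 593 and 316 CPM in DOX OIL (-1.27 ± 0.29). H2-Ab1, a class II chain, was at 52.9, 34.6 and 31 CPM in DOX P4 and at 66.3, 150 and 76.6 CPM in DOX OIL (-1.31 ± 0.30), with a value of -0.86 without DOX OIL replicate 2, and reads of such histocompatibility genes can be split among near-identical copies. Macrophage markers did not fall as a group: of 22 measured 0 rose and 1 fell (0 higher and 1 lower unadjusted and by DESeq2), while 5 rose and 0 fell without DOX OIL replicate 2. The 1 fall, of Aif1 (chosen after its value was seen), also ended without any 1 of the DOX P4 libraries. Of 15 B and plasma cell markers 3 fell and 0 rose (0 unadjusted and by DESeq2; 1 fell without DOX OIL replicate 2 or DOX P4 replicate 2 or 3), with summed levels of 69.5 to 89 CPM in DOX P4 and 123 to 254 CPM in DOX OIL. Of 18 T and NK cell markers 3 fell and 0 rose (0 unadjusted and by DESeq2), with 1 fall without DOX OIL replicate 2 or DOX P4 replicate 2 and 0 without DOX P4 replicate 3. Of 39 chemokine genes 6 fell and 1 rose, with 3 falls and 3 rises without DOX OIL replicate 2, 3 falls and 0 rises without DOX P4 replicate 3, and 0 rises without DOX OIL replicate 3. Cx3cl1, a chemokine anchored in the membrane, was at 24.3, 22 and 14.4 CPM in DOX P4 and at 41, 44.2 and 50.6 CPM in DOX OIL (-1.16 ± 0.20). The receptor Cxcr4 fell by 1.31 ± 0.29. Of 36 cytokine genes 4 rose and 4 fell, with 2 rises without DOX OIL replicate 1 or DOX P4 replicate 1 and 2 falls without DOX OIL replicate 2 or DOX P4 replicate 3. Tnfsf10, a death ligand, fell by 1.19 ± 0.22, and the decoy receptor Il13ra2 rose by 2.07 ± 0.43. Of 38 interferon-stimulated genes 1 rose, the RNA sensor listed as Ddx58 (0.79 ± 0.19), and 2 fell, a share under that of all genes. The 2 falls, Irf1 and Ifit2, each ended without DOX OIL replicate 2 or DOX P4 replicate 2 or 3, and 0 falls were left in those 3 fits, with DESeq2 size factors, with no filter on low counts, with the 6 libraries fitted alone or with the replicate block (1 fall remained without DOX OIL replicate 3, and 2 genes rose without DOX P4 replicate 2). Of 28 complement and coagulation genes 2 rose and 3 fell, among them F3, tissue factor, at 80.7 to 88.5 CPM in DOX P4 and 158 to 212 CPM in DOX OIL (-1.11 ± 0.11), with 5 rises without DOX OIL replicate 2 and 1 without DOX OIL replicate 1 or 3 or DOX P4 replicate 2 or 3.

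The markers called in the muscle, stroma and gland lists were all higher in DOX P4, and those called in the endothelial list all lower. Of the 20 smooth muscle markers 12 rose and 0 fell (0 unadjusted and by DESeq2), with 7 rises without DOX OIL replicate 1, 6 without DOX P4 replicate 2 and 4 when the 6 libraries were fitted alone. Actg2, the enteric smooth muscle actin, was at 709, 1786 and 698 CPM in DOX P4 and at 130, 305 and 411 CPM in DOX OIL (1.92 ± 0.41). Myocd, the master coactivator of smooth muscle genes, was at 49.9 to 63.1 CPM in DOX P4 and at 21.3 to 34.1 CPM in DOX OIL (1.06 ± 0.21). Desmin, Des, was at 1.02 and Tagln at 0.68, the second not called (adjusted p = 0.117 by edgeR). Of 5 genes of skeletal muscle 4 rose. Acta1 was at 165, 144 and 150 CPM in DOX P4 and at 11.1, 18.6 and 17.5 CPM in DOX OIL (3.28 ± 0.26). Tnni2 rose by 1.67 ± 0.25, Ckm by 2.51 ± 0.53, and Tnnc2, which had few counts, by 2.15 ± 0.69 (not called without DOX OIL replicate 1 or 2 or DOX P4 replicate 1). Myh4, a defining myosin of skeletal fibres, had 1 count in DOX P4 and 1 in DOX OIL over 3 libraries each. Acta1 and Actg2 are close paralogs of Acta2, so their reads may be shared. Of 16 stromal markers 8 rose and 0 fell (0 unadjusted and by DESeq2; 5 rose without DOX OIL replicate 1), including Smoc2 at 451, 476 and 467 CPM in DOX P4 and at 259, 265 and 249 CPM in DOX OIL (0.85 ± 0.16). The stromal sums were 6233 to 7249 CPM in DOX P4 and 5924 to 6692 CPM in DOX OIL, which overlap.

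Of 12 gland markers 4 rose and 0 fell (1 lower at an unadjusted p under 0.05, and 0 by DESeq2), and the summed level was 244 to 284 CPM in DOX P4 and 161 to 222 CPM in DOX OIL. These were Spink3, Ttr, Cited4 (1.10 ± 0.18) and Fxyd4 (1.48 ± 0.32), while Foxa2, the transcription factor that defines glands, was at 0.06 with an adjusted p of 0.916 by edgeR. Of 21 luminal markers 5 fell and 2 rose, with summed levels of 1316 to 1449 CPM in DOX P4 and 1374 to 1660 CPM in DOX OIL. Wnt7a was at 10.9, 12.5 and 16.5 CPM in DOX P4 and at 55.7, 29.2 and 23.8 CPM in DOX OIL (-1.44 ± 0.29). Luminal falls numbered 3 without DOX OIL replicate 1 or 2 or any DOX P4 replicate and with DESeq2 size factors, and 1 gene rose without DOX OIL replicate 2 or DOX P4 replicate 3. Of 20 endothelial markers 5 fell and 0 rose (0 unadjusted and by DESeq2), with 2 falls without DOX OIL replicate 2 and 3 without DOX P4 replicate 2 or 3. Cldn5, the claudin of endothelium, was at 56.7, 43.8 and 39.7 CPM in DOX P4 and at 85.9, 84.5 and 97 CPM in DOX OIL (-0.93 ± 0.22). Robo4 fell by 0.70 ± 0.18, whereas the defining markers Cdh5 and Kdr were at -0.08 and -0.33 and not called. Of 21 adipocyte markers 1 fell and 0 rose (2 lower and 0 higher unadjusted, 1 and 0 by DESeq2), and Adipoq was at -0.98 with an adjusted p of 0.613 by edgeR. Hdc, which makes histamine and was the 1 mast cell list gene of 10 to rise, was at 261, 280 and 317 CPM in DOX P4 and at 44.1, 51.1 and 70.6 CPM in DOX OIL (2.37 ± 0.45). The mast cell markers Cpa3 (0.22) and Tpsb2 (-0.04) were not called. Of 13 ciliated cell markers 2 rose and 3 fell, with 1 rise without DOX OIL replicate 1 and 0 without DOX P4 replicate 3. Foxj1, the master factor of motile cilia, was at 1.31, 0.752 and 1.34 CPM in DOX P4 and at 9.12, 7.48 and 5.37 CPM in DOX OIL (-2.69 ± 0.66). Neutrophil genes other than Ltf were not called, and S100a8 was at 5, 2 and 28 counts in DOX P4 and at 132, 14 and 9 counts in DOX OIL.

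**Figure D4:**
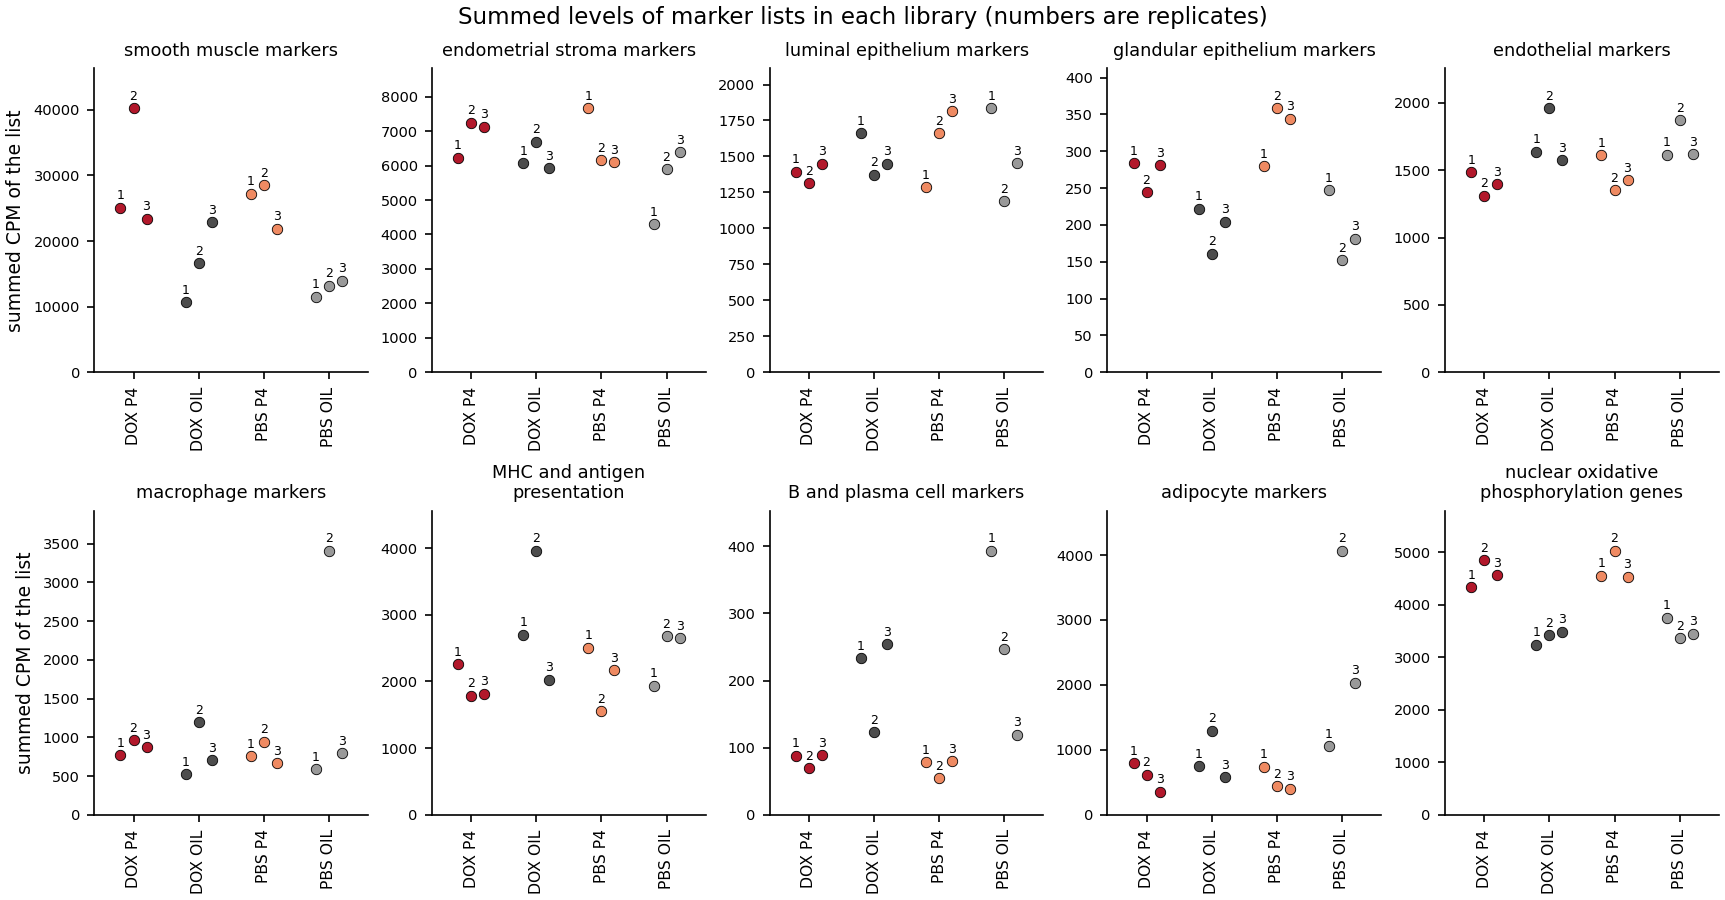
Each point is the summed CPM of a marker list in 1 library, numbered by replicate, for DOX P4 and DOX OIL and for PBS P4 and PBS OIL, on linear axes from 0. Smooth muscle sums are 23435 to 40311 CPM in DOX P4 and 10697 to 22882 CPM in DOX OIL, while macrophage and adipocyte sums overlap between these groups, with DOX OIL replicate 2 the highest.

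The same contrast without doxorubicin, PBS P4 minus PBS OIL, shares no library with the response described so far. It called 4930 genes (31.8%), and 3356 genes were called in both arms in the same direction, which is 72.7% of the calls of the doxorubicin arm and 68.1% of those of the PBS arm. Of the 1052 genes that changed at least 2-fold after doxorubicin, 1036 had the same sign in the PBS arm, 16 the opposite sign, and 818 were called there as well. The Pearson correlation of the log2 fold changes of both arms was 0.759 across 15494 genes and 0.815 across the 13451 whose mean log2 CPM was 1 or more, given as a description since genes are not independent replicates. Npl was at 112, 179 and 151 CPM in PBS P4 and at 3.97, 5.39 and 6.85 CPM in PBS OIL (4.77), and Hsd11b2 at 213 to 226 CPM in PBS P4 and 13.9 to 23.5 CPM in PBS OIL (3.65 ± 0.33), beside 4.62 and 3.64 after doxorubicin. Clca3 was at -5.82 in the PBS arm, beside -6.0 after doxorubicin, and Cfi at -4.22, beside -4.73.

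The test of the difference between arms, the interaction, called 1 of 15494 genes (0.00645%), and 525 had an unadjusted p under 0.05. That gene was Rfx2, a transcription factor of ciliated and germ cells, on chromosome 17 from 56775897 to 56831013. It was at 40.9, 33.1 and 44.5 CPM in DOX P4 and at 56.4, 60.2 and 63.2 CPM in DOX OIL, and at 57.6, 45.2 and 60.6 CPM in PBS P4 and at 27.2, 38.1 and 27.7 CPM in PBS OIL. Progesterone thus went with a fall of 0.60 ± 0.14 after doxorubicin and a rise of 0.81 ± 0.14 without it, a difference of -1.41 ± 0.20 (adjusted p = 0.0477 by edgeR), and Rfx2 was also the 1 gene called in both arms with opposite signs. Leaving out each library in turn, the call held in 2 of 12 fits, those without PBS OIL replicate 2 and without PBS P4 replicate 2, and ended in the other 10. DESeq2 called 2 genes, Rfx2 and its relative Rfx1. The other genes with the smallest interaction p were not called at the threshold, with adjusted p-values near 1 by edgeR. Rfx1 was at -0.37 ± 0.08 after doxorubicin and 0.22 ± 0.08 without it, and Sec23b, a coat protein of vesicles that leave the endoplasmic reticulum, at 0.74 ± 0.10 and 1.36 ± 0.10. Ddit4, an inhibitor of mTORC1, was at 0.35 ± 0.19 and -0.70 ± 0.19, with 23.6 to 27.8 CPM in DOX P4 and 18 to 21.1 CPM in DOX OIL, against 25.3 to 34.5 CPM in PBS P4 and 40.6 to 56.5 CPM in PBS OIL. Ppic, a cyclophilin whose rise after doxorubicin ended without DOX P4 replicate 3, was at 0.33 ± 0.08 and -0.11 ± 0.08, and the glycosyltransferase gene listed as B3galtl at 0.43 ± 0.10 and -0.09 ± 0.10.

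Some genes had unlike values in the arms without passing the interaction test. Zbtb16 rose by 1.63 ± 0.25 after doxorubicin and by 3.13 ± 0.27 without it, with an unadjusted interaction p of 0.000637 from edgeR. Its DOX P4 values of 82.3 to 98.8 CPM lay near the PBS P4 values of 96.2 to 124 CPM, whereas DOX OIL, at 23.2 to 33.7 CPM, lay above PBS OIL, at 9.46 to 15.8 CPM. Trpv6 was at -1.96 ± 0.20 and -1.02 ± 0.19 (0.00342), Ttr at 2.24 ± 0.41 and 4.19 ± 0.45 (0.00433) and Sgk1 at 0.58 ± 0.24 and -0.60 ± 0.24 (0.00315), each given as the doxorubicin arm, the PBS arm and the unadjusted edgeR interaction p. Sgk1 was uneven in PBS OIL, at 1048, 2437 and 1209 counts with replicate 2 the highest, against 1074, 874 and 1191 counts in PBS P4. List counts in both arms were close for oxidative phosphorylation (26 risen after doxorubicin, 25 without), the progesterone-induced genes (21 and 22) and the hedgehog pathway (8 and 9). Collagen and matrix genes had 19 risen and 1 fallen after doxorubicin and 9 risen and 4 fallen without it, with medians of 0.70 and 0.23, and clock genes had 1 risen and 11 fallen after doxorubicin and 2 and 5 without it. No member of either list was called in the interaction, where 4 matrix and 3 clock genes had an unadjusted p under 0.05 (Col15a1, at 1.77 and 0.78, and Nr1d1, at -1.42 and -0.59, are examples), so the lists are not shown to differ between arms. PBS OIL replicate 2 stood apart: its collagen and matrix sum was 14900 CPM, against 7556 and 10636 CPM in the other PBS OIL libraries. PBS P4 sums were 12782 to 14722 CPM. Adipocyte markers of that PBS OIL library summed to 4070 CPM, against 1061 and 2033 CPM, and macrophage markers to 3412.5 CPM, against 591 and 797 CPM. Col15a1 had 899, 3751 and 2059 counts in PBS OIL, and the part of replicate 2 in these list counts was not tested.

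**Figure D5:**
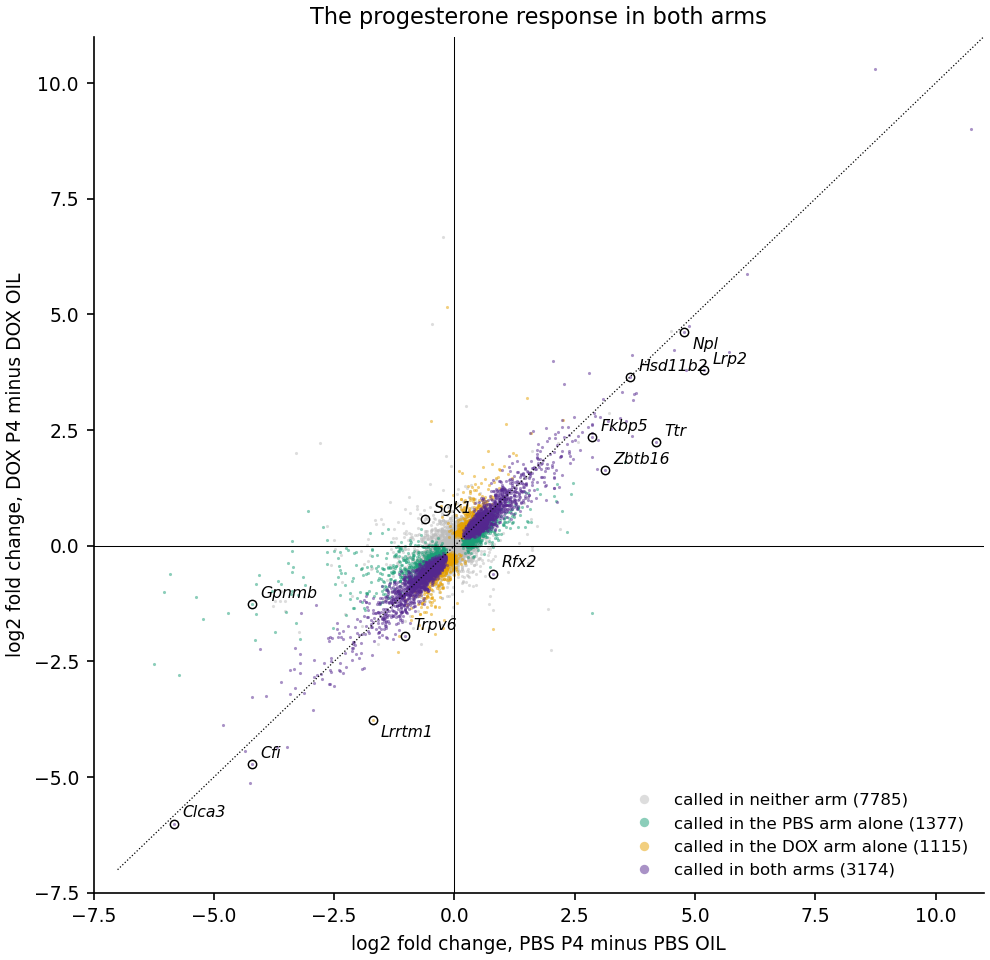
Each point is a gene whose mean log2 CPM was 1 or more, placed by its log2 fold change in the PBS arm (horizontal) and in the doxorubicin arm (vertical), coloured by the arms in which it was called, with a dotted line of equal change. Most called genes lie along the line (Pearson 0.815 across 13451 genes), and Rfx2, at 0.81 in the PBS arm and -0.60 in the doxorubicin arm, lies in the quadrant of opposite signs.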

How the data were processed

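RNA of whole uterus was sequenced in 18 libraries, 3 in each of 6 groups, after TruSeq Total RNA preparation per the labels' protocols. The authors deposited raw counts per gene symbol, 22238 symbols in all, of which 2904 were at 0 throughout. The submitters' processing notes name the build GRCm38, the aligner HISAT2 2.1.0, StringTie 1.3.4d for transcripts, Trimmomatic 0.36 and DESeq2 1.18.1. Counter, annotation and strand setting: not given in the sources used here. Groups were read from the sample titles.

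Counts were filtered with filterByExpr, scaled by TMM and fitted with edgeR 4.0.16 (limma 3.58.1, R 4.3.3) over all 18 libraries and 6 groups, with no block and 12 residual degrees of freedom. The robust quasi-likelihood F test was used, with Benjamini-Hochberg adjustment over 15494 genes and a threshold of 0.05. CPM use the TMM library size. A change beyond 2-fold was tested with glmTreat. SEs were derived from the F statistic. Genes with 3 or fewer counts in a group were given as count ratios or bounds. The test was tested on simulated data.

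The contrast is fixed by the labels, and the lists, the naming rule and the tests were chosen with earlier results of these data known. Named genes are the 12 largest rises and falls among called genes (mean log2 CPM 1 or more, groups apart, no clone or predicted name), up to 4 members per list by smallest p, receptors and reporters fixed by name, the 3 genes each way with the smallest interaction p, and the 6 each way with the smallest adjusted p beyond 2-fold. Some genes that the rule picks are not reported here. Genes named outside this rule are defining markers or are marked as chosen after their values were seen. Alternatives were DESeq2 1.42.0, its size factors, other filters, fewer libraries, a replicate block, a table without mitochondrial or small RNA features, and each library left out. Figures were drawn with Python 3.11.15, pandas 2.3.3 and matplotlib 3.10.9. Within each of the 4 groups used, no 2 libraries agreed within sampling noise by a chi-square test of their counts.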

Additional observations from a re-analysis of the deposited data

Results flagged for a closer look

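Rfx2 was called in the test of the interaction between arms, close to the threshold. The log2 fold change was -0.60 ± 0.14 after doxorubicin and 0.81 ± 0.14 without it, a difference of -1.41 ± 0.20 with 3 libraries in each of 4 groups (adjusted p = 0.0477 by edgeR). DOX P4 lay below DOX OIL in 3 of 3 libraries, and PBS P4 lay above PBS OIL in 3 of 3. The call ended with a stricter filter on low counts, with only the libraries of the compared groups, with the replicate block, and, leaving out each library in turn, in 10 of 12 fits, while DESeq2 also made it.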

How the results depend on the processing

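The count of genes changed after doxorubicin was 4362 with no filter on low counts and 5122 with DESeq2, beside 4618, and 3057 (without DOX P4 replicate 3) to 3896 with a library of this arm left out. No gene called both there and in the fit of the report changed sign. The share of rises among called genes was 49.2%, and 55.8% with DESeq2 and 46.95% without DOX OIL replicate 2. Changes beyond 2-fold, an alternative set chosen after seeing the data, numbered 119 with DESeq2 and 138 with mitochondrial and small RNA features removed, beside 137, and 76 (without DOX P4 replicate 3), 77 (without DOX OIL replicate 1) to 118 with a library left out. The PBS arm called 3664 genes with its libraries fitted alone and 3146 (without PBS P4 replicate 3) to 4460 with a library left out, beside 4930. The interaction called 2 genes with DESeq2, 0 with a stricter filter, 0 with only the libraries compared, 0 with the replicate block, and 0 to 1 with a library left out, and the cause was not tested. Replicate numbers did not pair the samples: deviations of same-numbered DOX P4 and DOX OIL libraries correlated at -0.0854, -0.0722 and -0.102. With the replicate block 4588 genes were called after doxorubicin, 125 beyond 2-fold, and 4931 in the PBS arm.

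Of 1704 leave-one-out values of the 284 named genes, 1612 kept direction and side of the threshold, 76 lost the call, 8 gained it and 8 changed sign, and over the other settings 1929 of 1972 kept both, 21 lost it and 22 gained it. The sign changes were in genes called in neither fit: Per1 ranged from -0.27 to 0.082 (the second without DOX OIL replicate 1) and Cdkn1a from -0.25 to 0.35, with -0.25 without DOX OIL replicate 3, -0.089 without DOX P4 replicate 1 and -0.17 without DOX P4 replicate 3. Without DOX OIL replicate 3 Hba-a1 was at -0.054 and Hba-a2 at -0.069, and without DOX P4 replicate 3 at -0.13 and -0.20, while their highest values were 0.65 and 0.57. Of 2043 genes with a mean log2 CPM under 1, 16.1% were called, and 90.3% of those calls were at least 2-fold.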

Other observations

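The 2 families given here were picked after their values were seen. Of 77 mitochondrial ribosomal proteins 35 rose after doxorubicin, with a median log2 fold change of 0.29, and 25 to 31 rose with a library of that arm left out. Of 49 proteasome subunits and chaperones 26 rose, with 20 to 24 rises with a library left out. None of the called rises of these 2 families reached 2-fold, and the families were not tested as sets. In the PBS arm 32 of the mitochondrial ribosomal proteins and 26 of the proteasome genes rose.

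Umod and Osta were named after their values were seen. Umod, which encodes uromodulin, had 1 count in DOX P4 and 134 in DOX OIL, the highest of them in DOX OIL replicate 3 with 67. Osta, a subunit of the organic solute transporter, had 281 counts in DOX P4 and 0 in DOX OIL, at least 79.6-fold higher by a floor of 3 counts over the group.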
